A study of Homo sapiens with 6 samples.

Results

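The genes described here are the protein-coding genes of the cytosolic and mitochondrial heat shock chaperone network in HepG2 cells, an established human hepatocellular carcinoma line. They were chosen by symbol from the deposited expression table: the HSPA, HSPB, HSPD, HSPE, HSPH and HSP90A genes, the DNAJA, DNAJB and DNAJC genes, TCP1 and the CCT genes, BAG1 to BAG6, HSF1 and HSF2. Some chaperones of the endoplasmic reticulum (HSPA5, HSPA13, HSP90B1, DNAJB9, DNAJB11, DNAJC3 and DNAJC10) and CCT6B were left out by name. The location of the other proteins was not checked, so genes of that compartment may remain, for example among the DNAJB and DNAJC genes. The rule found 77 of the 18404 genes in the table, and itself read no measured value. The table, however, held only genes with at least 1 count in every library. A gene without counts in any 1 library, in either group, could therefore not be chosen. The 77 were 2 heat shock factors, 9 HSP70 genes, 3 HSP110 genes, 2 HSP90 genes, 5 small heat shock proteins, 2 mitochondrial chaperonin genes, 8 TRiC genes, 4 DNAJA, 9 DNAJB, 24 DNAJC and 6 BAG genes, and 3 genes with an HSP symbol that belong to none of these families (HSPB11, HSPBAP1 and HSPBP1).

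RNA was sequenced from adherent HepG2 cells in DMEM after 48 h with 10 µM oridonin, a plant diterpenoid with a reactive enone, or with 0.1% DMSO, the solvent. Each of the 2 groups held 3 libraries, and the DMSO content of the oridonin wells is not given in the labels. The labels do not say whether the wells were separate cultures, so the p-values measure the spread between these libraries, which may be technical. The question addressed is which chaperone transcripts differed between the groups. Values are bulk RNA levels, in which fewer cells of a kind and less RNA per cell cannot be told apart.

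Heat shock chaperones bind unfolded or partly folded proteins and keep them from aggregating. HSP70 proteins work in cycles of ATP hydrolysis that J-domain proteins (DNAJ) start and nucleotide exchange factors (HSP110, BAG) end, and they pass some clients on to HSP90 or to the ring-shaped chaperonins. In a heat shock response, HSF1 is released from chaperones, trimerises and binds heat shock elements, alternating GAA and TTC blocks, upstream of the inducible genes. The constitutive relatives, such as HSPA8 and HSP90AB1, are abundant in unstressed cells and serve protein synthesis and assembly.

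Heat shock elements are shown first, since they are the letters that HSF1 is known to bind. Windows of 300 bases, from 250 before to 50 after each RefSeq transcription start (build GRCh38.p14), were searched on both strands for 3 alternating units, NGAANNTTCNNGAAN or its reverse complement NTTCNNGAANNTTCN, with overlapping matches counted. Of the 68 chaperone genes with a window, 6 held an exact match (8.82%), against 0.597% of all 27305 genes with a window. The 6 were HSP90AA1, HSP90AB1, HSPA8, HSPD1, DNAJA1 and DNAJB6, and HSPA6, an HSP70 gene outside the rule that is described with its family below, held a match too. The matches upstream of the start are printed 5′ to 3′ on the gene's strand with the matched bases in capitals, and alone, without neighbouring bases, where an exon of an annotated transcript covers the surrounding bases. They lie at chr1:161524450-161524494 (plus strand) for HSPA6, chr6:44247762-44247859 (plus) for HSP90AB1 and chr7:157336857-157336901 (plus) for DNAJB6. On the minus strand they lie at chr11:123062353-123062367 and chr11:123062178-123062192 for HSPA8, chr14:102087119-102087133 for HSP90AA1 and chr2:197500067-197500086 for HSPD1.
HSPA6: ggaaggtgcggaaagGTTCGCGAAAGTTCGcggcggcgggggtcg
HSP90AB1: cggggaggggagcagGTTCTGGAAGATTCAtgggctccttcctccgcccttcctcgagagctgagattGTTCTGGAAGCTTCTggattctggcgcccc
HSPA8, distal: TGAAAGTTCCAGAAC
HSPA8, proximal: CTTCTGGAAGGTTCT
HSP90AA1: CTTCCGGAAGGTTCG
HSPD1, 2 overlapping matches: TTTCTGGAAAGTTCTGGAAC
DNAJB6: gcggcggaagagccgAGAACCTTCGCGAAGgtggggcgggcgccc

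With 1 mismatch in the 9 fixed letters allowed, 19 of the 68 chaperone genes held a match (27.9%), against 7.54% of all genes. HSPH1, BAG3, HSPB8, DNAJB5 and DNAJC25, all called higher below, still held no match, and HSF1 had no window. Matches were added for several other genes whose RNA levels are described below. They are printed in the same way, for HSPA1B at chr6:31827617-31827661 (plus strand), DNAJB1 at chr19:14518421-14518490 (minus), DNAJB4 at chr1:78004840-78004854 (plus) and HSPB1 at chr7:76302475-76302519 (plus).
HSPA1B: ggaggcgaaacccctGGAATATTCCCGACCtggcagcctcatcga
DNAJB1: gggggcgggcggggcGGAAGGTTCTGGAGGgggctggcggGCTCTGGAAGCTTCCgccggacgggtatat
DNAJB4: GTTCTAGAAAGTACA
HSPB1: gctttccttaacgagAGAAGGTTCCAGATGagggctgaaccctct

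The matched bases of HSPA1A are the same as those printed for HSPA1B, GGAATATTCCCGACC. A match is a run of letters, not a measured site, and no binding was measured here. Of the 6 genes with an exact match, HSPA8 was higher with oridonin, HSP90AB1 and HSPD1 were lower, and HSP90AA1, DNAJA1 and DNAJB6 were not called. Among the 56 other tested chaperone genes with a window, 13 were higher, 3 lower and 40 not called. With 1 mismatch allowed, 6 of the 16 tested genes with a match were higher and 4 lower, and 8 of the 46 without a match were higher and 1 lower. Of all 15116 genes tested, 20.6% were higher and 21.3% lower. Whether a match goes with a call was not tested.

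Over the whole network, most differences were small, and fewer genes were called lower than higher. Levels are given as CPM, read counts scaled to a common depth with TMM factors, differences as log2 fold changes of oridonin over DMSO with the standard error (SE), and a gene is called when edgeR's quasi-likelihood test gave an adjusted p under 0.05 over all genes tested. Of the 77 genes, 71 passed the filter on low counts and 6 did not (DNAJA4, DNAJB7, DNAJC12, HSPB6, HSPB7 and HSPB9, each with 1 to 14 counts per library). Calls were made for 24 of the 71 genes (33.8%), against 41.9% of all 15116 genes tested. Of these, 18 were higher (25.4%, against 20.6% of all genes) and 6 were lower (8.45%, against 21.3%). The share called was thus below the background, the share higher was near it, and the share lower was below it. The 2 groups' levels did not overlap for 38 of the 71 genes (53.5%), against 51.6% of all genes. The shares over all genes (20.6% higher, 21.3% lower, 51.6% without overlap) are the background for each family below. The median log2 fold change was 0.03 over the 71 genes and 0.01 over all genes, and the median size without sign was 0.117 and 0.217. HSPB8 alone of the called genes differed by more than 2-fold. With scaling to total counts, 84.4% of the called chaperone genes were higher in place of 75%, and 65.5% of all called genes in place of 49.2%.

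**Figure D1:**
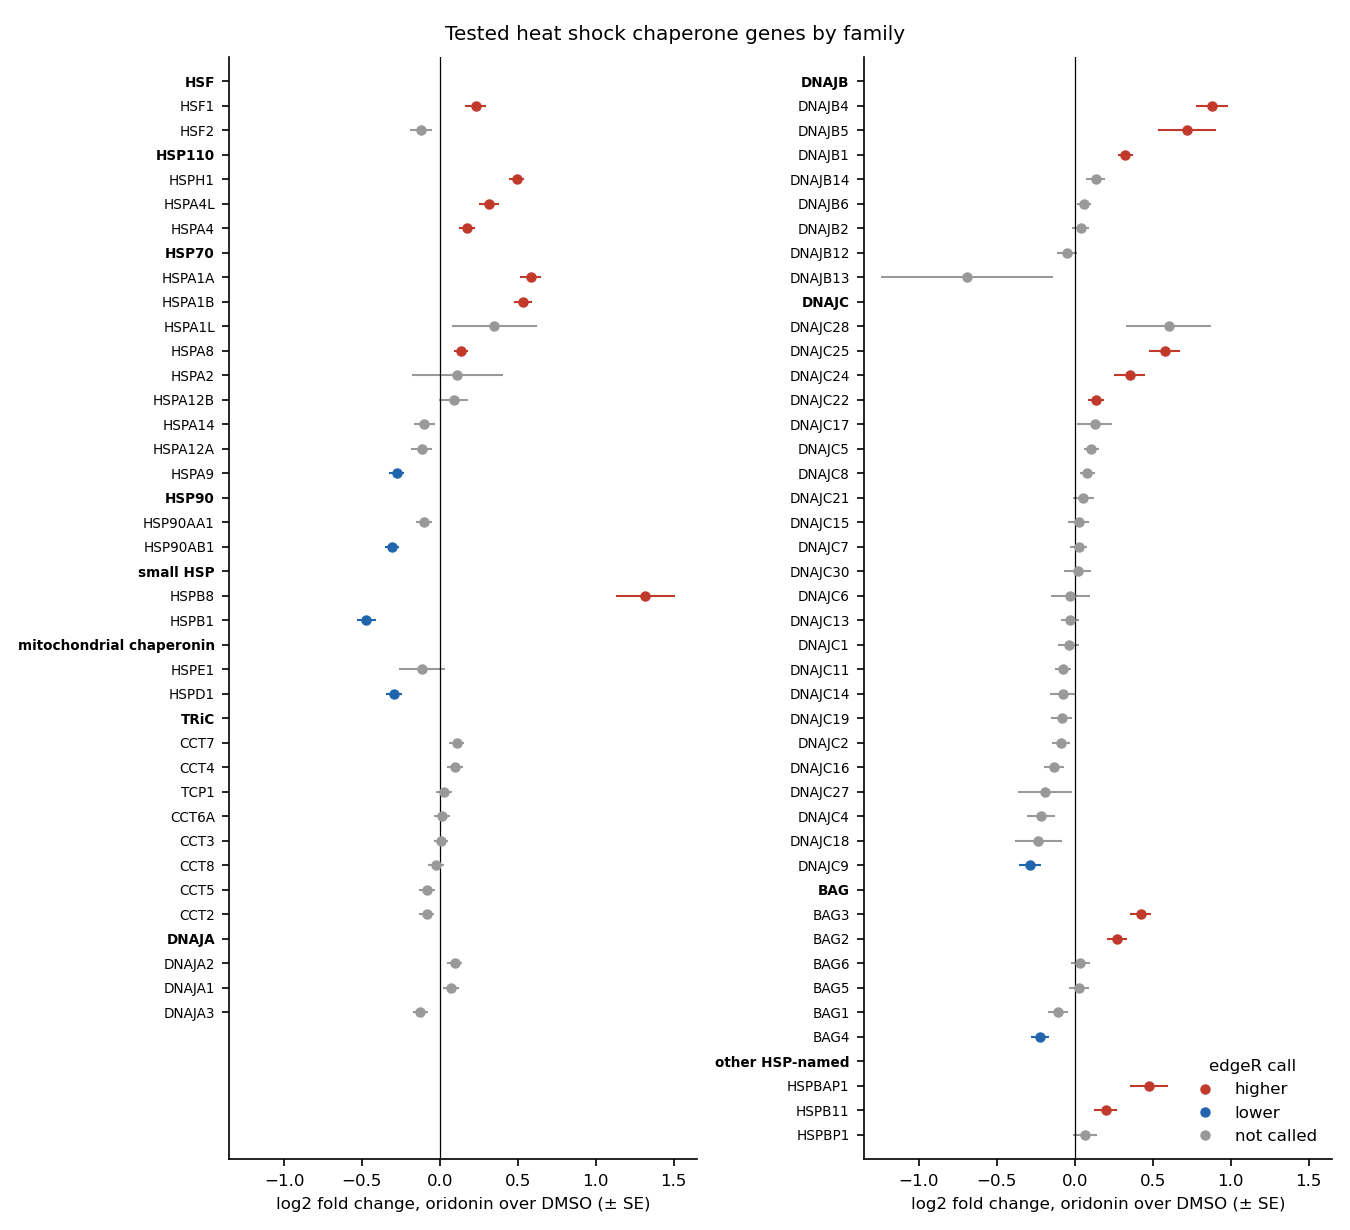
Log2 fold change of oridonin over DMSO (x axis, ± SE) for the 71 tested genes, grouped by family and ordered within it. Red points were called higher (18 genes), blue points lower (6 genes) and grey points were not called (47 genes); HSPB8 lies farthest to the right at 1.32, and the 8 TRiC genes lie within 0.11 of 0.

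The libraries held 22250202 to 30739574 counts, of which the 77 genes took 1.48 to 1.56%. All 10 hepatocyte and HepG2 markers checked were detected, with summed levels of 27501 to 31392 CPM of total counts in DMSO and 17120 to 19674 CPM with oridonin. Low levels of transcripts of other cell types differed between the groups. The summed CPM of 8 leukocyte and B cell markers was 5.28 to 6.07 in DMSO and 20.1 to 25.2 with oridonin, with MS4A1 at 0 in all 6 libraries. CD79A alone was at 1.12 to 1.40 CPM in DMSO and 15.8 to 21.1 CPM with oridonin. Summed CPM was 0.0449 to 18.9 and 27.6 to 87.8 for 11 immunoglobulin genes, and 2.20 to 7.87 and 14.4 to 22.7 for 10 gut epithelial markers. For 7 fibroblast and endothelial markers it was 64.4 to 71.0 and 44.7 to 46.4, mostly PDGFRB. Their part in the chaperone results was not tested.

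HSF1, the main activator of heat shock genes, was slightly higher with oridonin, and HSF2, a related factor, was not called. HSF1 stood at 82.2, 83.7 and 98.6 CPM in the DMSO libraries and at 100.2, 98.9 and 111 CPM with oridonin. The lowest oridonin library lay just above the highest DMSO library, and the log2 fold change was 0.23 ± 0.070 (SE, adjusted p = 0.0159). This call rested on single libraries: the adjusted p was 0.0667 without DMSO replicate 1, 0.0825 without DMSO replicate 2 and 0.0661 without oridonin replicate 3. HSF2 stood at 20.1, 20.3 and 18.8 CPM in DMSO and 17.4, 18.6 and 18.4 CPM with oridonin, a log2 fold change of -0.12 ± 0.071 (adjusted p = 0.191).

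The stress-inducible HSP70 genes were higher with oridonin, the abundant constitutive HSPA8 was barely higher, and the mitochondrial HSP70 gene HSPA9 was lower. Of 9 HSP70 genes, 3 were called higher (HSPA1A, HSPA1B and HSPA8), 1 lower (HSPA9) and 5 were not called. HSPA1A (chr6:31815464-31817946 in hg38, plus strand), an inducible cytosolic HSP70, stood at 25.1, 25.1 and 25.7 CPM in DMSO and 38.4, 34.9 and 40.4 CPM with oridonin. The 3 DMSO libraries were nearly equal and all lay below the 3 oridonin libraries, with a log2 fold change of 0.58 ± 0.068 (adjusted p = 2.81e-06). Its neighbour HSPA1B (chr6:31827735-31830255, plus), which encodes an almost identical protein, stood at 36.9, 37.3 and 38.5 CPM in DMSO and 55.1, 52.7 and 55.2 CPM with oridonin. Its groups did not overlap either, and the log2 fold change was 0.53 ± 0.056 (adjusted p = 9.33e-07). The split between this pair is uncertain, since 71.3% of the 50-base stretches in HSPA1A transcripts also occur in other genes, chiefly HSPA1B.

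HSPA8, the constitutive HSP70 that folds newly made proteins, stood at 1312, 1308 and 1250 CPM in DMSO and 1378, 1492 and 1381 CPM with oridonin. Its groups did not overlap, but the log2 fold change was 0.14 ± 0.048 (adjusted p = 0.0304). The HSPA8 call was lost without DMSO replicate 1, 2 or 3 (adjusted p of 0.0536, 0.0749 and 0.0897) and without oridonin replicate 2 (0.118). HSPA9 (mortalin), the HSP70 of the mitochondrial matrix and a motor of protein import, stood at 679, 710 and 697 CPM in DMSO and 572, 587 and 561 CPM with oridonin. All 3 oridonin libraries lay below the DMSO libraries, a log2 fold change of -0.28 ± 0.045 (adjusted p = 9.5e-05). The 5 HSP70 genes not called were HSPA1L, HSPA2, HSPA12A, HSPA12B and HSPA14, with log2 fold changes from -0.12 to 0.35. HSPA1L and HSPA2, testis-enriched genes, reached at most 1.23 CPM in any library.

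HSPA6, an HSP70 gene known for being silent until heat or proteotoxic stress, has no row in the expression table and is therefore not among the 77. Its counts were 0, 0 and 3 in the DMSO libraries and 19, 28 and 26 in the oridonin libraries. It was close to undetected in DMSO and counted in every oridonin library. The summed counts were 3 and 73, a ratio of 20.8 after scaling (95% exact interval 6.85 to 103, which covers counting error only), and edgeR's adjusted p was 3.7e-05. HSPA6 passed the filter on low counts only through the oridonin libraries, so that p-value is not read as support for a difference. Its log2 fold change ran from 3.636 to 7.515 over the 11 other settings that tested it. HSPA6 and the pseudogene HSPA7 share 45.5% of the 50-base stretches of HSPA6 transcripts, and HSPA7 had at most 2 counts in any library. Of the other genes of these families without a row, CCT8L2, DNAJB8, DNAJC5B and 3 readthrough genes had no counts, and DNAJC5G, HSPB2 and HSPB3 had 1 or 2 counts over all libraries.

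All 3 HSP110 genes, nucleotide exchange factors of HSP70 that also take part in dissolving aggregates, were called higher. HSPH1 (chr13:31134974-31162388, minus), the heat-inducible one, stood at 119, 117 and 115 CPM in DMSO and 160, 171 and 162 CPM with oridonin. Its oridonin libraries lay far above the DMSO libraries, with a log2 fold change of 0.49 ± 0.048 and the smallest adjusted p of the 77 genes, 4.16e-07. HSPA4L stood at 32.8, 31.2 and 30.4 CPM in DMSO and 39.6, 40.5 and 37.2 CPM with oridonin (log2 fold change 0.31 ± 0.062, adjusted p = 0.000615). HSPA4, the constitutive member, stood at 248, 250 and 234 CPM in DMSO and 275, 287 and 263 CPM with oridonin (0.17 ± 0.050, adjusted p = 0.00939). None of the 3 genes had overlapping groups.

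The constitutive HSP90 gene HSP90AB1 was lower with oridonin, and its inducible paralogue HSP90AA1 was not called. HSP90AB1 (chr6:44246166-44253888, plus), which matures kinases and steroid receptors, stood at 3654, 3637 and 3635 CPM in DMSO and 2887, 3084 and 2867 CPM with oridonin. The DMSO libraries were almost equal and all above the oridonin libraries, a log2 fold change of -0.31 ± 0.045 (adjusted p = 3.27e-05), or -19.1%. HSP90AA1 (chr14:102080738-102139699, minus) stood at 1483, 1455 and 1369 CPM in DMSO and 1293, 1421 and 1294 CPM with oridonin. Its groups overlapped through DMSO replicate 3 and oridonin replicate 2, and the log2 fold change was -0.10 ± 0.051 (adjusted p = 0.114). Without either of those libraries HSP90AA1 passed the threshold, at -0.14 (adjusted p = 0.0373) without DMSO replicate 3 and -0.15 (0.0296) without oridonin replicate 2. With every library kept and a block for replicate number in the edgeR fit, HSP90AA1 was called lower too (adjusted p = 0.0166). Pseudogenes share 16.6% of the 50-base stretches of HSP90AB1 transcripts and other genes share 14.02% of those of HSP90AA1.

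Among the small heat shock proteins, which hold unfolded proteins in a soluble form without ATP, the 2 tested genes moved in opposite directions. HSPB8, the partner of BAG3 in chaperone-assisted autophagy, stood at 1.59, 1.30 and 1.42 CPM in DMSO (35, 37 and 39 counts) and 3.26, 4.38 and 3.05 CPM with oridonin (104, 135 and 86 counts). Each oridonin library lay well above the DMSO libraries, and the log2 fold change of 1.32 ± 0.189 (adjusted p = 2.74e-05) came from a low level. On the log2(FPKM + 1) scale, which compresses low genes, it was 0.58. HSPB1 (HSP27; chr7:76302544-76304295, plus), an actin-binding chaperone that is abundant in epithelial and tumour cells, stood at 132, 138 and 152 CPM in DMSO and 95.7, 99.2 and 109 CPM with oridonin. Its groups did not overlap, and at -0.47 ± 0.061 (adjusted p = 9.44e-06) HSPB1 had the lowest log2 fold change of the 6 genes called lower. HSPB6, HSPB7 and HSPB9 had at most 11 counts in any library.

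**Figure D2:**
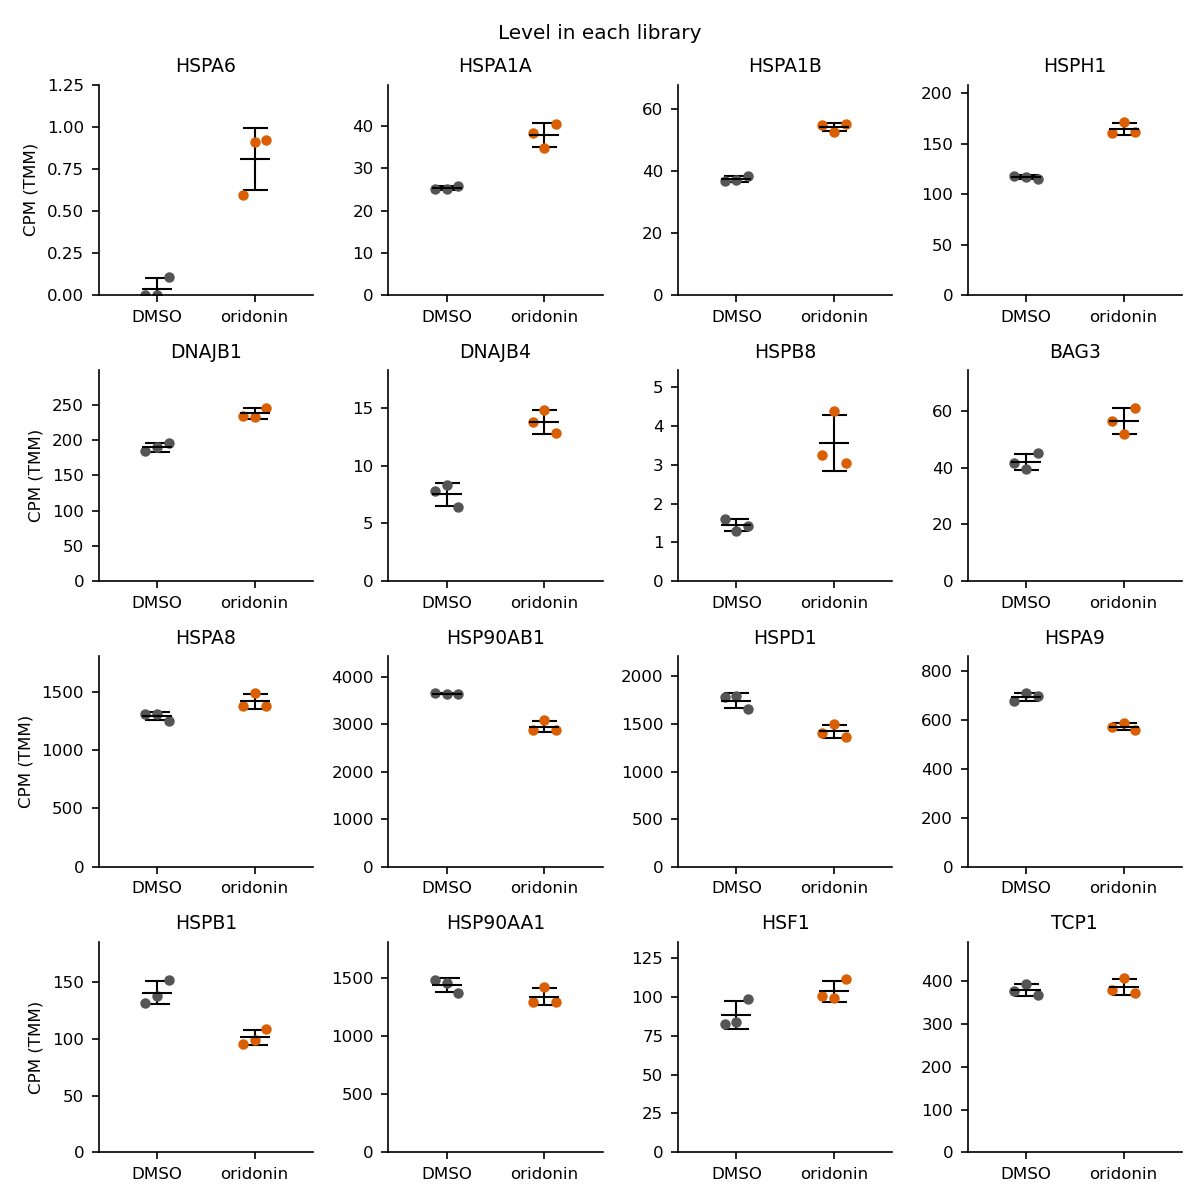
CPM after TMM scaling (y axis, from 0) in each library for HSPA6 and 15 chaperone genes, with DMSO libraries in grey and oridonin libraries in orange; the long bar is the group mean and the short bars mark 1 SD (n = 3). The groups are separate in every panel except those of HSP90AA1 and TCP1, and HSP90AB1, HSPD1, HSPA9 and HSPB1 lie lower with oridonin.

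In mitochondria, HSPD1 (HSP60; chr2:197486581-197516737, minus), the chaperonin ring of the matrix, was lower with oridonin alongside HSPA9. HSPD1 stood at 1785, 1794 and 1655 CPM in DMSO and 1411, 1495 and 1365 CPM with oridonin. The groups were separate, and the log2 fold change was -0.29 ± 0.050 (adjusted p = 0.000149). Other genes share 18.4% of the 50-base stretches of HSPD1 transcripts. HSPE1 (HSP10), the lid of the same chaperonin, stood at 45.9, 61.3 and 44.5 CPM in DMSO and 46.7, 40.4 and 53.5 CPM with oridonin. Its groups overlapped (-0.11 ± 0.149, adjusted p = 0.588). HSPE1 is read with caution, because 22.7% of the 50-base stretches of its transcripts occur in other genes and the 2 genes lie head to head with 281 exon bases in common.

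The TRiC chaperonin, an 8-subunit ring that folds actin and tubulin, showed no called subunit. Its log2 fold changes ran from -0.08 for CCT2 and CCT5 to 0.11 for CCT7. TCP1 stood at 376, 393 and 367 CPM in DMSO and 379, 407 and 372 CPM with oridonin (0.03 ± 0.050, adjusted p = 0.698). CCT2 stood at 297, 297 and 287 CPM in DMSO and 266, 289 and 275 CPM with oridonin (-0.08 ± 0.048, adjusted p = 0.17). In both genes the groups overlapped. Of the 8 subunits, 1 had an unadjusted edgeR p under 0.05 (CCT7), and DESeq2 and limma on log2 FPKM called 0. With total-count scaling 2 were called higher, CCT4 (adjusted p = 0.0089) and CCT7 (0.0022). CCT7 alone was called without DMSO replicate 3 (adjusted p = 0.0316). A block for replicate number changed more calls, with CCT4 and CCT7 higher and CCT2 and CCT5 lower.

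J-domain proteins deliver clients to HSP70 and set off its ATP hydrolysis. Those of the DNAJB class held 3 called genes, all higher, among 8 tested. DNAJB1 (HSP40; chr19:14514770-14529770, minus), the classical stress-inducible partner of HSP70, stood at 184, 190 and 197 CPM in DMSO and 234, 233 and 246 CPM with oridonin. Its groups were clearly separate (0.32 ± 0.048, adjusted p = 3.98e-05). DNAJB4 (chr1:77979175-78017964, plus), a close relative, stood at 7.84, 8.29 and 6.39 CPM in DMSO and 13.8, 14.8 and 12.8 CPM with oridonin. This was the second farthest log2 fold change upward among the called genes, 0.88 ± 0.104 (adjusted p = 3.61e-06), and no oridonin library came near the DMSO libraries. DNAJB5 stood at 1.59, 1.86 and 1.86 CPM in DMSO (35, 53 and 51 counts) and 2.79, 2.43 and 3.62 CPM with oridonin (89, 75 and 102 counts), with a log2 fold change of 0.72 ± 0.186 (adjusted p = 0.00496). DNAJB2, DNAJB6, DNAJB12, DNAJB13 and DNAJB14 were not called, and DNAJB13 (-0.69 ± 0.552) rested on 2 to 17 counts per library.

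The DNAJA class, the other general partners of HSP70, held no called gene among 3 tested, with 1 unadjusted edgeR p under 0.05 (DNAJA3) and 0 calls by DESeq2 or limma on log2 FPKM. With total-count scaling, DNAJA1 and DNAJA2 were called higher (adjusted p of 0.024 and 0.00751), and without DMSO replicate 1 there was 1 lower call, DNAJA4, a gene with at most 14 counts in any library that was not tested with all 6. DNAJA1 stood at 255, 264 and 243 CPM in DMSO and 255, 280 and 265 CPM with oridonin, so its groups overlapped (0.07 ± 0.051, adjusted p = 0.29). DNAJA2 had a log2 fold change of 0.09 ± 0.048. DNAJA3, the mitochondrial member, had a log2 fold change of -0.12 ± 0.051 (adjusted p = 0.0591). With a block for replicate number, DNAJA2 was called higher and DNAJA3 lower.

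DNAJC genes, a varied class whose members recruit HSP70 to particular sites, were mostly not called: 3 of 23 tested were higher, 1 was lower and 19 were not called. The 19 had log2 fold changes from -0.23 (DNAJC18) to 0.60 (DNAJC28, with 23 to 59 counts per library). DNAJC25 stood at 10.98, 11.8 and 8.76 CPM in DMSO and 15.6, 16 and 15.3 CPM with oridonin (0.58 ± 0.098, adjusted p = 0.00016), with no overlap. A readthrough gene, DNAJC25-GNG10, shares 13.8% of its exon bases and had 0 counts. DNAJC24, which takes part in diphthamide synthesis, stood at 8.93, 9.55 and 9.24 CPM in DMSO and 11.05, 11.04 and 13.4 CPM with oridonin (0.35 ± 0.098, adjusted p = 0.008). Without oridonin replicate 3, its highest library, the adjusted p of DNAJC24 was 0.0546.

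DNAJC22 stood at 75.0, 72.3 and 73.7 CPM in DMSO and 83.2, 82.0 and 77.5 CPM with oridonin (0.14 ± 0.052, adjusted p = 0.0435). That call was lost in 7 of 15 other settings, including the removal of DMSO replicate 1, 2 or 3 (adjusted p of 0.0787, 0.16 and 0.0565) or of oridonin replicate 1 or 2 (0.175 and 0.103). DNAJC9, a histone chaperone that links HSP70 to chromatin assembly, was the class's only lower call. It stood at 26.2, 28.0 and 30.5 CPM in DMSO and 23.6, 22.1 and 23.8 CPM with oridonin (-0.29 ± 0.071, adjusted p = 0.00363). Of its exon bases, 24.0% overlap FAM149B1 on the opposite strand, and whether the counting used strand is not given in the sources used here.

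The BAG proteins release ADP from HSP70 and so end its hold on a client. BAG3, the stress-inducible member that routes HSP70 clients to autophagy with HSPB8, stood at 41.5, 39.5 and 45.2 CPM in DMSO and 56.4, 51.9 and 60.9 CPM with oridonin. BAG3 (chr10:119651370-119677819, plus) had separate groups and a log2 fold change of 0.42 ± 0.069 (adjusted p = 9.83e-05). BAG2, an inhibitor of the ubiquitin ligase CHIP, stood at 53.2, 57.9 and 51.5 CPM in DMSO and 65.1, 70.2 and 60.7 CPM with oridonin (0.27 ± 0.064, adjusted p = 0.00269). On the opposite strand, RAB23 overlaps 42.7% of BAG2 exon bases, so its count may include reads of that gene. BAG4 was lower, at 37.6, 37.6 and 36.4 CPM in DMSO and 32.6, 31.3 and 31.6 CPM with oridonin (-0.23 ± 0.059, adjusted p = 0.0053), and missed the threshold with total-count scaling (adjusted p = 0.0654). BAG1, BAG5 and BAG6 were not called, with log2 fold changes from -0.11 to 0.04.

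The 3 genes with an HSP symbol outside these families were given by fold change. HSPBAP1, which encodes a protein that binds HSPB1, was higher (0.47 ± 0.123, adjusted p = 0.0049), and on the log2(FPKM + 1) scale its difference was 0.26. HSPB11 (IFT25), a subunit of the intraflagellar transport complex, was higher at 0.20 ± 0.073 (adjusted p = 0.0377), and HSPBP1, an exchange factor of HSP70, was not called at 0.07 ± 0.077. HSPB11 lost its call without DMSO replicate 2 or 3 (adjusted p of 0.115 and 0.0938) and without oridonin replicate 2 (0.188).

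Levels between genes were compared per gene length, in FPKM (fragments scaled to the authors' gene length and library depth). That length can pool the exons of several transcripts of a gene. Ranks, shares and comparisons between genes are therefore approximate and are not levels per transcript. In DMSO, HSP90AB1 led with 1212 ± 4.86 FPKM (SD, n = 3), 30.8% of the summed FPKM of the 77 genes. HSPD1 followed with 407 ± 14.8 FPKM, HSP90AA1 with 271 ± 8.82 FPKM, HSPA8 with 264 ± 5.86 FPKM, CCT7 with 163 ± 7.92 FPKM and HSPA9 with 145 ± 3.79 FPKM. HSP90AA1 and HSPA8 did not differ beyond their spread in DMSO. With oridonin they stood at 256 ± 14.6 and 294 ± 13.2 FPKM. HSPA1A stood at 10.1 FPKM in DMSO, HSPA1B at 14.8, HSPH1 at 13.8, BAG3 at 15.2 and DNAJB1 at 51.4. HSPB1, called lower, stood at 85.4 FPKM. Which of the 77 genes heat induces in these cells was not tested.

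**Figure D3:**
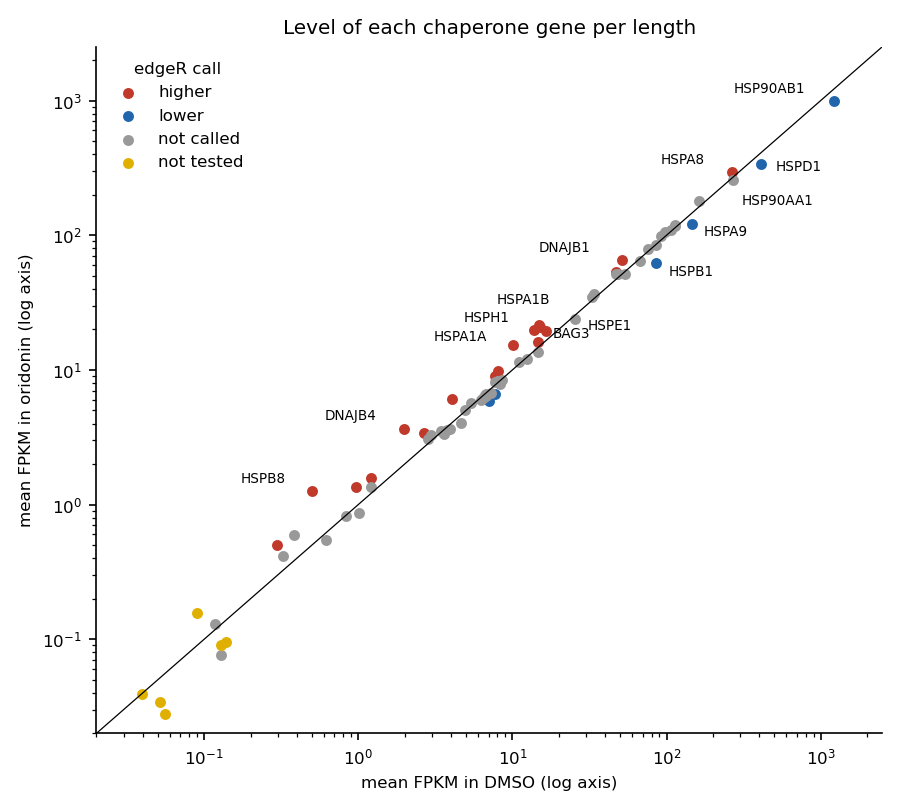
Mean FPKM with oridonin (y axis) against mean FPKM in DMSO (x axis), both log axes, for the 77 genes; the line marks equal levels. HSP90AB1, HSPD1, HSPA9 and HSPB1, called lower, lie among the most abundant genes, and the genes farthest above the line, HSPB8 and DNAJB4, lie at low levels.

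Summed over all 77 genes, FPKM went from 3932 ± 30.8 in DMSO to 3706 ± 117 with oridonin (SD, n = 3), although 3 times as many genes were called higher as lower. The groups did not overlap, and the exact 2-sided permutation test gave p = 0.1, the smallest that 3 against 3 libraries allow (0.186 after Benjamini-Hochberg adjustment over 13 sums). As a share of all counts, not weighted by length, the 77 genes took 1.54, 1.53 and 1.48% in DMSO and 1.496, 1.56 and 1.48% with oridonin, and these groups overlapped. The HSP90 sum went from 1483 ± 4.21 to 1250 ± 53.0 FPKM, a log2 difference of -0.25. For the mitochondrial chaperonin it went from 433 ± 18.3 to 360 ± 12.9 FPKM (-0.26), and for small heat shock proteins from 86.2 ± 6.99 to 63.7 ± 4.41 FPKM (-0.43), 99.1% of it HSPB1 in DMSO. Sums went the other way for HSP110, from 63.5 ± 1.46 to 76.6 ± 3.10 FPKM (0.27), and for DNAJB, from 82.3 ± 2.61 to 98.9 ± 2.79 FPKM (0.26, or 0.19 in CPM). In each of these 5 families the groups were separate (exact permutation p = 0.1, or 0.186 after the same adjustment). They were also separate for DNAJC, at the same p-values, from 201 ± 0.822 to 210 ± 1.80 FPKM (0.06). For single genes, the groups did not overlap in CPM for 51.6% of all genes tested. The TRiC sum, 766 ± 13.1 and 790 ± 31.8 FPKM, overlapped between groups (exact permutation p = 0.3).

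Ratios within a library compare chaperones with their own partners and do not depend on library scaling. A set of 8 pairs, chosen after the levels had been seen, was computed, and for each of them the groups did not overlap (exact 2-sided permutation p = 0.1, also after adjustment over the 8). Several pairs set a called gene against an uncalled or oppositely moving one, so their separation was partly fixed by the choice. The p-values are therefore not read as support, and the ratios are descriptive. For single genes, the groups did not overlap in CPM for 51.6% of all genes tested. The ratio of HSP90AA1 to HSP90AB1 was 0.230, 0.227 and 0.215 in DMSO and 0.253, 0.262 and 0.255 with oridonin, a log2 change of 0.20. For HSPA1A plus HSPA1B to HSPA8 it was 0.0912, 0.0922 and 0.0995 in DMSO and 0.131, 0.114 and 0.134 with oridonin (0.42). In these pairs the inducible genes stood higher against their constitutive relatives in each oridonin library than in any DMSO library. HSP90AA1 itself did not rise (log2 fold change -0.10, not called), and its ratio moved with the lower HSP90AB1 (-0.31). Log2 changes were 0.32 for HSPH1 against HSPA4, 0.25 for DNAJB1 against DNAJA1 and 0.53 for BAG3 against BAG1. For cytosolic against mitochondrial chaperones they were 0.41 for HSPA8 against HSPA9 and 0.32 for the TRiC sum against HSPD1. The ratio of HSPA8 to HSP90AB1 went from 0.221, 0.222 and 0.212 in DMSO to 0.293, 0.297 and 0.295 with oridonin (0.44).

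**Figure D4:**
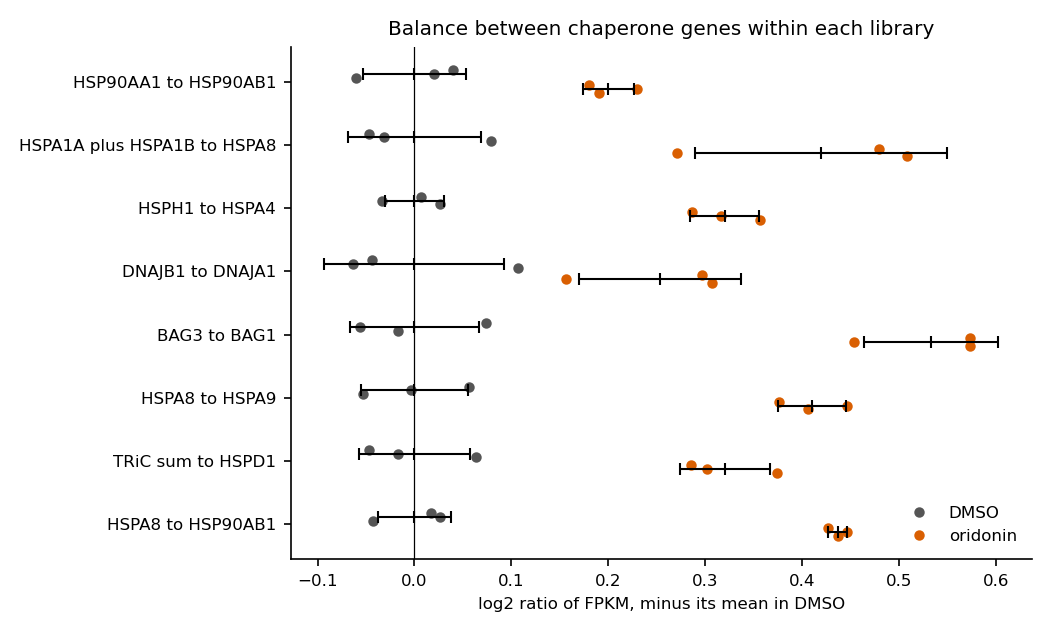
Log2 ratio of FPKM within each library for 8 pairs, minus the pair's mean in DMSO (x axis); points are libraries, bars the mean ± SD (n = 3), grey for DMSO and orange for oridonin. Every oridonin library lies to the right of every DMSO library in each pair, with mean changes from 0.20 for HSP90AA1 to HSP90AB1 to 0.53 for BAG3 to BAG1. The pairs were chosen after the levels had been seen, so this separation is descriptive only.

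Partner genes outside the rule were read from lists of cochaperones and related factors, 62 of which were tested: 23 were higher (37.1%) and 6 lower (9.68%), against 20.6% and 21.3% of all genes, the background for each list below. The HSP90 cochaperones, which load clients onto HSP90 and time its cycle, held 9 higher genes among 18 tested, and the other 9 were not called. TOMM34, which binds HSP70 and HSP90 with mitochondrial precursors, went from 97.3, 103 and 109 CPM to 199, 204 and 202 CPM (log2 fold change 0.96 ± 0.052, adjusted p = 3.83e-10). NUDC followed at 0.31 ± 0.050, and AHSA1, the activator of the HSP90 ATPase, was at 0.26 ± 0.053. The 12 prefoldin and chaperonin cofactors, which pass clients to TRiC, held 3 higher genes, with PFDN6 and PDRG1 both at 0.28, and the other 9 were not called. AHSA1 was named after its value was seen.

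The 7 HSP70 cofactors outside the rule were split. GRPEL1, the mitochondrial nucleotide exchange factor of HSPA9, was higher (0.18 ± 0.051), and its paralogue GRPEL2 was lower (-0.43 ± 0.065). ST13 (HIP), which slows substrate release from HSP70, was lower (-0.28 ± 0.048), and STUB1 (CHIP), a ubiquitin ligase for chaperone clients, was higher (0.22 ± 0.070, lost in 5 of 15 other settings). STUB1 missed the threshold without DMSO replicate 1 or 2 (adjusted p of 0.103 and 0.0616) or oridonin replicate 3 (0.0631).

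Of 13 other mitochondrial chaperones and proteases, 4 were higher and 3 lower. CLPB, a disaggregase of the intermembrane space, was higher at 0.40 ± 0.058, and SPG7, an inner membrane protease, at 0.21 ± 0.053. TRAP1, the mitochondrial HSP90, was lower at -0.19 ± 0.052, and the matrix protease LONP1 at -0.20 ± 0.060. LONP1 kept its call in 9 of 15 other settings and TRAP1 in 13 of 15. Both calls were lost with total counts only and with limma on log2(FPKM + 1), and that of LONP1 also with limma on log2 FPKM. The adjusted p of LONP1 was 0.0503 without oridonin replicate 1 and 0.0676 without oridonin replicate 2.

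Among 12 tested HSF1 regulators and other heat-inducible genes, 5 were higher, including HSPA6, and 1 was lower. HSPA6, also counted in the partner total above, entered the test only through its oridonin libraries. IER5, a cofactor that promotes HSF1 activity and is itself heat-inducible, stood at 14.1, 14.1 and 15.5 CPM in DMSO and 21.8, 20.9 and 22.8 CPM with oridonin (0.58 ± 0.074, adjusted p = 8.82e-06). SERPINH1 (HSP47), a collagen chaperone of the endoplasmic reticulum that heat also induces, was the lower gene, at -0.44 ± 0.051 (adjusted p = 2.41e-06). The 7 chaperones of the endoplasmic reticulum that the rule left out held 4 lower genes and 1 higher gene. HSP90B1, the HSP90 of that compartment, was at -0.54 ± 0.054 and HSPA13 at -0.43 ± 0.049. DNAJB11 was called higher at 0.12 ± 0.046 (adjusted p = 0.0451) and kept that call in 5 of 15 other settings. It lost the call without DMSO replicate 1 or 2 (adjusted p of 0.204 and 0.0814) and without oridonin replicate 1, 2 or 3 (0.0902, 0.0816 and 0.107).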

How the data were processed

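Gene counts for 60504 genes and log2 FPKM values for 18404 genes, both from hg38 per the submitters' processing notes, were taken as the authors deposited them for 3 DMSO and 3 oridonin libraries. The deposited counts were whole numbers per gene, with 22250202 to 30739574 per library. The authors' log2 FPKM values were turned back to FPKM for levels. The submitters' notes name DESeq2 1.10.1. No source used here names the aligner, the counter or its use of strand.

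Counts were tested with edgeR 4.0.16 in R 4.3.3 (filterByExpr, TMM, robust glmQLFit, glmQLFTest, Benjamini-Hochberg over all 15116 genes tested, calls at 0.05). The SE is the log2 fold change divided by the square root of F. DESeq2 1.42.0 and limma 3.58.1 (also with a pseudocount of 1) served as alternatives, beside other scalings, filters, the replicate block and leaving out each library. The code was tested on simulated data.

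The members and lists were chosen with earlier results of these data known, and the 8 ratios after levels had been seen. Genes were named by smallest p, in each family up to 4 called ones of the more frequent direction and up to 2 of the opposite one, and 20 fixed genes regardless of outcome. Each list of partners named up to 2 per direction. Sequences and start sites came from RefSeq (GRCh38.p14), and exon overlaps and shared 50-base stretches from GENCODE 29. Libraries of a group differed beyond sampling noise (chi-square per degree of freedom 6.57 to 8.89), so all 6 were kept. Intervals cover counting error only.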

Additional observations from a re-analysis of the deposited data

How the results depend on the processing

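Of the 24 called chaperone genes, 18 were called in every setting that tested them (13 higher, 5 lower), and none changed sign. BAG4, DNAJC22, DNAJC24, HSF1, HSPA8 and HSPB11 were lost in at least 1 setting. Of the 47 genes not called, 17 passed in at least 1 of up to 15 settings and 18 changed sign in at least 1. Leaving out 1 library gave 14 to 17 higher and 6 to 8 lower chaperone genes, and a median log2 fold change from -0.00641 to 0.0447. Over all genes the same settings gave 2534 to 3258 higher and 2748 to 3289 lower, with 34.0 to 42.1% of those tested called. The median was 0.11 with total counts only. Partner genes called lower were 3 in place of 6 with total counts only and with limma on log2(FPKM + 1). Allowing 1 mismatch in the heat shock element gave 19 chaperone genes in place of 6, and requiring 4 units gave 0. HSPB8 and DNAJB5 rested on 35 to 53 counts per DMSO library, which limits their precision.

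With the replicate block, 23 chaperone genes of 71 were higher and 13 lower, and of all 15116 genes 3850 were higher and 3839 lower. The block called 4 of the 8 TRiC genes, CCT4 and CCT7 higher and CCT2 and CCT5 lower, and of the DNAJA genes DNAJA2 higher (adjusted p = 0.0224) and DNAJA3 lower (0.00737). The numbers do not pair the samples by the labels, and same-numbered libraries correlated at 0.194, 0.0651 and 0.173 over genes in their deviations from the group means, each library best with its own number.

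Small log2 fold changes that changed sign were, with total counts only, DNAJB12 0.0312, DNAJC1 0.0411, DNAJC11 0.00586, DNAJC13 0.0494, DNAJC14 0.0026, DNAJC6 0.0536 and CCT8 0.0555. Leaving out 1 library in turn moved BAG5 from -0.0183 to 0.0785, BAG6 from -0.0145 to 0.101, DNAJB12 from -0.0908 to 0.000973, DNAJC13 from -0.0662 to 0.0255, DNAJC15 from -0.0208 to 0.0567, DNAJC21 from -0.0231 to 0.122, DNAJC30 from -0.0251 to 0.0702 and DNAJC6 from -0.136 to 0.0751. The ranges were -0.0138 to 0.0442 for DNAJC7, -0.0481 to 0.331 for HSPA2, -0.00958 to 0.0187 for CCT3, -0.0227 to 0.0515 for CCT6A, -0.0781 to 0.00503 for CCT8, -0.0132 to 0.0538 for TCP1 and -0.216 to 0.0497 for HSPE1. The cause of these changes was not tested.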
